A study of Homo sapiens with 19 samples.

Results

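A set of 9 immediate early genes that do not encode AP-1 subunits was followed across the ERRα cistromes of HER2-positive breast cancer cells. They are MYC, EGR1, EGR2, EGR3, IER2, IER3, KLF6, KLF10 and SRF, which are 9 of the 19794 protein-coding genes of the annotation. They were chosen by symbol, and a gene counted as bound in a list when the centre of an ERRα peak lay within 20 kb of one of its annotated transcription starts. ERRα, encoded by ESRRA, is an orphan nuclear receptor that regulates energy metabolism, and its genomic binding was measured by ChIP-seq. SKBr3 and BT-474, both breast cancer cell lines with an amplified HER2 gene, were serum-starved for 24 h and given vehicle, 100 μM EGF or 100 μM heregulin (HRG) for 90 min, doses as the labels state them. LRSKBr3 cells are SKBr3 cells that became resistant to lapatinib, an EGFR and HER2 kinase inhibitor, and were kept in 2 μM of it. pSKBr3 cells are their parental line, and the labels give neither of these lines a starvation step. The drug and the line differ together between pSKBr3 and LRSKBr3, so that their parts in a difference cannot be told apart.

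Immediate early genes are transcribed within minutes of a growth signal, without new protein synthesis. Growth factors activate kinases that act on factors already bound at these genes, such as SRF with its ternary complex partners at CArG boxes and CREB at cAMP response elements (CRE). Many of the products are themselves transcription factors, which then switch on further genes. ERRα binds the ERR response element (ERRE), TCAAGGTCA, and AP-1, the JUN and FOS dimer, binds TGACTCA or TGAGTCA.

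The sequences below hold the motif words that lay in member peaks and that the results return to. They are GRCh37 sequence on the plus strand, with every match of a searched word in capitals. The IER3 stretch carries the reverse complement of the ERRE inside a site called in all 8 lists (chr6:30715110-30715318). The KLF6 stretch carries it in a downstream peak of the SKBr3 vehicle and LRSKBr3 lists (chr10:3808481-3808689). The EGR2 stretch carries an AP-1 word inside a site called in 7 lists (chr10:64563991-64564197). The EGR1 stretch has 3 CArG boxes in the edge of the pSKBr3 peak that faces the gene (chr5:137800650-137800859), and the IER2 stretch has a CRE found on HRG (chr19:13263812-13263839).
IER3 upstream ERRE: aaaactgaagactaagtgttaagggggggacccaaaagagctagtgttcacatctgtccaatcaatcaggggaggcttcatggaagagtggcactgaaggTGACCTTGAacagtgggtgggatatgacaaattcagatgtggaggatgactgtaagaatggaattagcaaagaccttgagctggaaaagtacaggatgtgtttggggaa
KLF6 downstream ERRE: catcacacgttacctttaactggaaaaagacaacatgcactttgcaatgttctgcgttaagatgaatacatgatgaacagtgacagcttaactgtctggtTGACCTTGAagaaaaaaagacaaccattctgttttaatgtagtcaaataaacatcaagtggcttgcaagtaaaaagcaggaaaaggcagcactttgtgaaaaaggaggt
EGR2 and ADO AP-1 word: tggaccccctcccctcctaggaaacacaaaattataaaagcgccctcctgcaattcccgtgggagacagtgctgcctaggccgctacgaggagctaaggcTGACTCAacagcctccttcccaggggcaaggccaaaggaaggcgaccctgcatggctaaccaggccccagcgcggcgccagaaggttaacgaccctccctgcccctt
EGR1 upstream CArG boxes: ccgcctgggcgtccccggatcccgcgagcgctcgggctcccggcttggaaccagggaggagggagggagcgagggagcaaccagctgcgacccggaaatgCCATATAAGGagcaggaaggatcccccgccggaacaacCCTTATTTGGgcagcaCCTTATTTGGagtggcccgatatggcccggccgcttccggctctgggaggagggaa
IER2 CRE: ggtgtctcagTGACGTCActgggggtat

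Each condition is represented by 1 deposited peak list. The SKBr3, pSKBr3 and LRSKBr3 lists each pool 2 ChIP libraries, and each BT-474 list comes from 1 ChIP library. The lists held 22539 to 41271 peaks. No spread between replicates can be had from them, so no difference below was tested and no P value is given. Tag counts were not part of the lists, so the depth of sequencing behind each peak is unknown. Each peak carries a MACS score, −10 log10 of its P value, which depends on depth and is therefore given as a percentile within its own list, where 100 is the strongest. The ESRRA promoter, which ERRα is known to bind, had a peak of score 3100 in every list (percentile 98.3 to 98.9).

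Of the 9 genes, 4 had a peak in range in SKBr3 cells on vehicle, 4 on EGF and 7 on HRG. Among all protein-coding genes the shares were 54.4%, 56.5% and 66.5%. In BT-474 cells 7 of the genes had a peak on vehicle, 4 on EGF and 6 on HRG, against 53.2%, 42.5% and 55.6% of all genes. The pSKBr3 list had a peak at 4 of the genes (57.2% of all genes) and the LRSKBr3 list at 7 (70.1%). These counts depend on the range. Within 10 kb, 2, 3 and 3 of the genes had a peak on SKBr3 vehicle, EGF and HRG, against 44%, 45.1% and 57% of all genes. Each BT-474 list had 4 (41.9%, 31.9% and 43.5% of all genes on vehicle, EGF and HRG), pSKBr3 had 3 (48.1%) and LRSKBr3 4 (61.7%). Within 5 kb the counts were 2, 3 and 3 in SKBr3 cells (36.4%, 36.6% and 49.2% of all genes), 4, 3 and 4 in BT-474 cells (33.6%, 24% and 34%), 3 in pSKBr3 (41.7%) and 4 in LRSKBr3 (54.7%). Counting only the gene of the nearest start gave 3, 3 and 4 in SKBr3 cells (40.5%, 42.4% and 52.9%), 5, 4 and 5 in BT-474 cells (40.7%, 32.8% and 43.4%), 3 in pSKBr3 (42.8%) and 4 in LRSKBr3 (56.5%). Under these 3 narrower rules the share of the 9 genes was above that of all genes in the BT-474 lists and below it in the other 5. As shares within 20 kb, the genes stood at 44.4% to 77.8% per list, above the background in 5 lists and below it in SKBr3 vehicle, SKBr3 EGF and pSKBr3. IER3 alone was bound in every list, as were 27% of all protein-coding genes, and each of the others lacked a peak in at least 1 list.

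**Figure D1:**
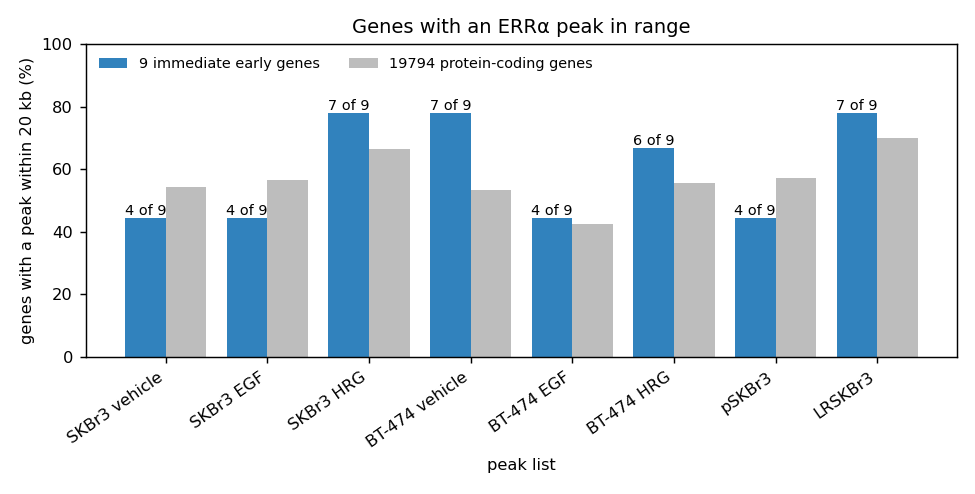
Share of genes with an ERRα peak centre within 20 kb of a start (y axis, percent) in each peak list (x axis), for the 9 immediate early genes (blue, with counts) and for all 19794 protein-coding genes (grey). The blue bars lie above the grey ones in 5 lists and below them in SKBr3 vehicle, SKBr3 EGF and pSKBr3.

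The peaks in range numbered 9 on vehicle, 12 on EGF and 22 on HRG in SKBr3 cells. They numbered 13, 6 and 12 in BT-474 cells, 9 in pSKBr3 and 18 in LRSKBr3, which makes 101 in all. IER3 (36 peaks) and IER2 (24 peaks) held most of them. Merged where they overlapped, the peaks formed 31 sites, of which 10 were called in 1 list and 2, both at IER3, in all 8. Of the 101 peaks, 51 (50.5%) lay 10 to 20 kb from the nearest start of the gene, where 32.1% to 36% of peaks in range of any gene lay per list. Within 1 kb lay 6 (5.94% against 16.2% to 30.5%). The share at 10 to 20 kb ranged from 16.7% on BT-474 EGF, below that of all genes, to 66.7% on SKBr3 vehicle, and the same sites recur across lists. Within 1 kb, 1 gene was bound on vehicle, 0 on EGF and 1 on HRG in SKBr3 cells, against 23.4%, 22.4% and 35.9% of all genes. The counts were 1, 0 and 0 in BT-474 cells (19.5%, 11.4% and 16.9% of all genes), 2 in pSKBr3 (31.5%) and 1 in LRSKBr3 (41.9%). For 68 of the 101 peaks the gene was also the one with the nearest start, and the other 33 lay closer to a neighbour.

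**Figure D2:**
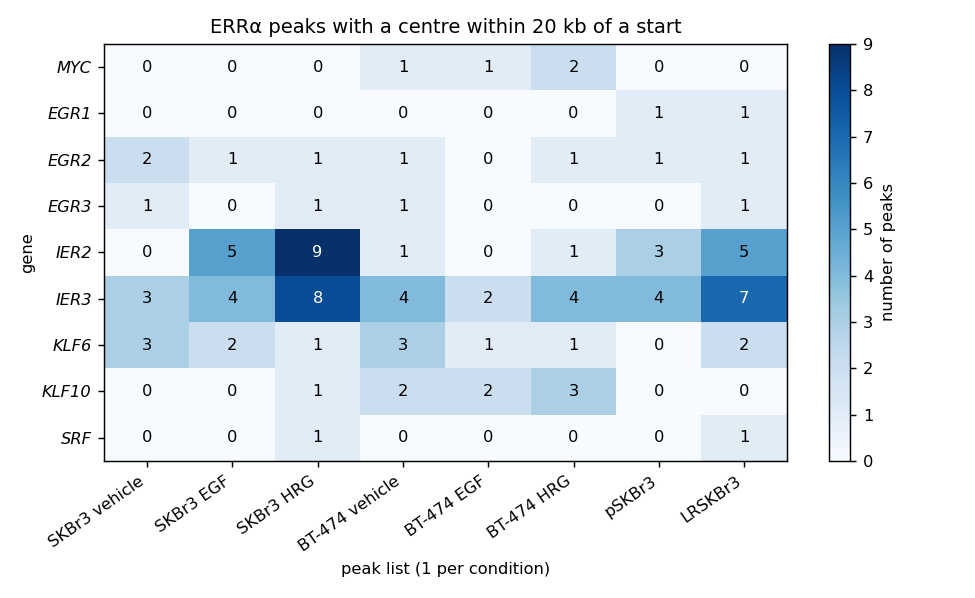
Number of ERRα peaks with a centre within 20 kb of a start, for each of the 9 genes (rows) in each peak list (columns); darker blue marks more peaks. IER2 goes from 0 on SKBr3 vehicle to 9 on SKBr3 HRG, and MYC has peaks in the BT-474 lists only.

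IER2 (ENSG00000160888, chromosome 19 from 13261225 to 13265725, plus strand) encodes a nuclear protein induced by serum. Its number of peaks differed most between the conditions. The SKBr3 vehicle list had 0 peaks in range, the EGF list 5 and the HRG list 9. The BT-474 lists had 1 on vehicle, 0 on EGF and 1 on HRG, while pSKBr3 had 3 and LRSKBr3 5. Of all genes, 4.13% had 5 or more peaks on SKBr3 EGF, 1.38% had 9 or more on SKBr3 HRG and 10.6% had 5 or more in LRSKBr3. On SKBr3 vehicle the nearest peak lay 33.5 kb away.

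Upstream of IER2, a peak in an intron of NACC1, a transcriptional corepressor gene, lay 17877 bp from the IER2 start on EGF (percentile 74.1), 17917 bp on HRG (percentile 83.5) and 17950 bp in LRSKBr3 (percentile 2.6). The start of NACC1 was nearer to it, at 4745 to 4818 bp. All 3 peaks held an AP-1 word at 13243263 to 13243269. Another peak, 8700 to 8808 bp downstream of an IER2 start, was called in the same 3 lists (percentile 29.6 on EGF, 69.3 on HRG and 45.8 in LRSKBr3) and also held an AP-1 word, at 13271326 to 13271332. The letters beside both words read like an Alu element, a repeat present throughout the human genome, and no repeat annotation was used here. Neither peak was called on vehicle, in pSKBr3 or in BT-474 cells.

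The start of IER2 faces that of STX10, a syntaxin gene. A peak over the IER2 start was called in 3 lists, HRG (percentile 54.8), pSKBr3 (28.4) and LRSKBr3 (50.4). In pSKBr3 and LRSKBr3 its centre lay in the 5′ UTR of STX10, 3 and 5 bp from a start of that gene. The peak with the CRE shown above was called only on SKBr3 HRG, from 13263394 to 13264387, at percentile 13.0, and its centre lay in the 5′ UTR of an IER2 transcript. Further downstream, a site with peaks 10829 to 13123 bp from the nearest start was called in 5 lists. The percentiles were 55.3 and 28.8 for its 2 peaks on EGF, and 83.6 on HRG, 5.0 on BT-474 vehicle, 58.6 in pSKBr3 and 82.0 in LRSKBr3. A site 17988 to 18083 bp downstream was at percentile 84.2 on HRG, 7.9 on BT-474 HRG, 13.8 in pSKBr3 and 69.4 in LRSKBr3. The IER2 region was thus called at more places on HRG and in LRSKBr3 than in their control lists, and at 0 or 1 place in BT-474 cells. The wider neighbourhood moved likewise in the SKBr3-derived lists. Within 500 kb of IER2 there were 13, 20 and 44 peaks on SKBr3 vehicle, EGF and HRG (median of all genes 12, 14 and 19). There were 22 in pSKBr3 and 40 in LRSKBr3 (medians 11 and 21), and 17, 8 and 11 in BT-474 cells on vehicle, EGF and HRG.

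IER3 (ENSG00000137331, chromosome 6 from 30710976 to 30712325, minus strand), a stress-induced regulator of cell survival, had 3 peaks on SKBr3 vehicle, 4 on EGF and 8 on HRG. BT-474 cells had 4, 2 and 4, pSKBr3 had 4 and LRSKBr3 had 7. Of all genes, 2.2% had 8 or more peaks on SKBr3 HRG. The ERRE shown above, at 30715210 to 30715218 and 2889 bp upstream of the 5′ end of the gene, lay inside a peak in all 8 lists. In the SKBr3 lists the peak that held it was centred 4075 to 4171 bp upstream, at percentile 33.7 on vehicle, 92.8 on EGF and 92.0 on HRG. Among the 11681 vehicle peaks near genes that had an EGF peak, 1.58% gained as much in percentile as this one. On HRG the share was 3.96% of 10834 peaks. In BT-474 cells the ERRE lay in a peak at percentile 56.4 on vehicle, 47.6 on EGF and 86.3 on HRG. Of 12077 BT-474 vehicle peaks near genes with an HRG peak, 11% gained as much on HRG, and of 9238 shared with EGF, 36.5% dropped as much. In pSKBr3 it was at 78.3 and in LRSKBr3 at 90.3, and 46.9% of shared peaks gained as much between those lists. In SKBr3 cells, all of them starved, the peak with the ERRE thus ranked lower on vehicle than on EGF and HRG, and in BT-474 cells it ranked lower on vehicle than on HRG but not than on EGF. These peaks differ in extent: the ERRE lay 20 to 59 bp from the centre of the pSKBr3, BT-474 vehicle and BT-474 EGF peaks, which were 1071 to 1814 bp wide. It lay 1190 to 1351 bp from the centre of the other 5, which were 4252 to 4551 bp wide, and the BT-474 HRG peak spans a region where the vehicle list had 2 peaks (percentiles 56.4 and 71.2). In the SKBr3 lists the peak with the ERRE also held an AP-1 word, at 30717572 to 30717578, 1076 to 1172 bp from the peak centre. The part of either word in the rank of the peak was not tested.

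Farther upstream of IER3, another peak 12566 to 14273 bp away was at percentile 94.2 on SKBr3 vehicle, 93.0 on EGF and 97.2 on HRG, 77.2 in pSKBr3 and 92.6 in LRSKBr3. BT-474 cells had it at 9.1 on vehicle and 7.8 on HRG and lacked it on EGF. Downstream, a peak in FLOT1, which encodes a flotillin of membrane rafts, lay 16063 to 16434 bp from the IER3 start and was called in all 8 lists. Its percentiles were 75.6, 79.4 and 89.7 in SKBr3 cells on vehicle, EGF and HRG, 24.1, 17.5 and 41.5 in BT-474 cells in the same order, 88.1 in pSKBr3 and 90.6 in LRSKBr3. For this peak the start of TUBB, a tubulin gene, was nearer than that of IER3. At the start of FLOT1, peaks were called on SKBr3 HRG (6452 bp wide, percentile 85.1, over starts of IER3 and FLOT1), in pSKBr3 (42.1) and in LRSKBr3 (14.9). Within 500 kb of IER3 there were 17, 29 and 48 peaks on SKBr3 vehicle, EGF and HRG, and 24, 16 and 27 in BT-474 cells in the same order. The pSKBr3 list had 24 and the LRSKBr3 list 47.

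**Figure D3:**
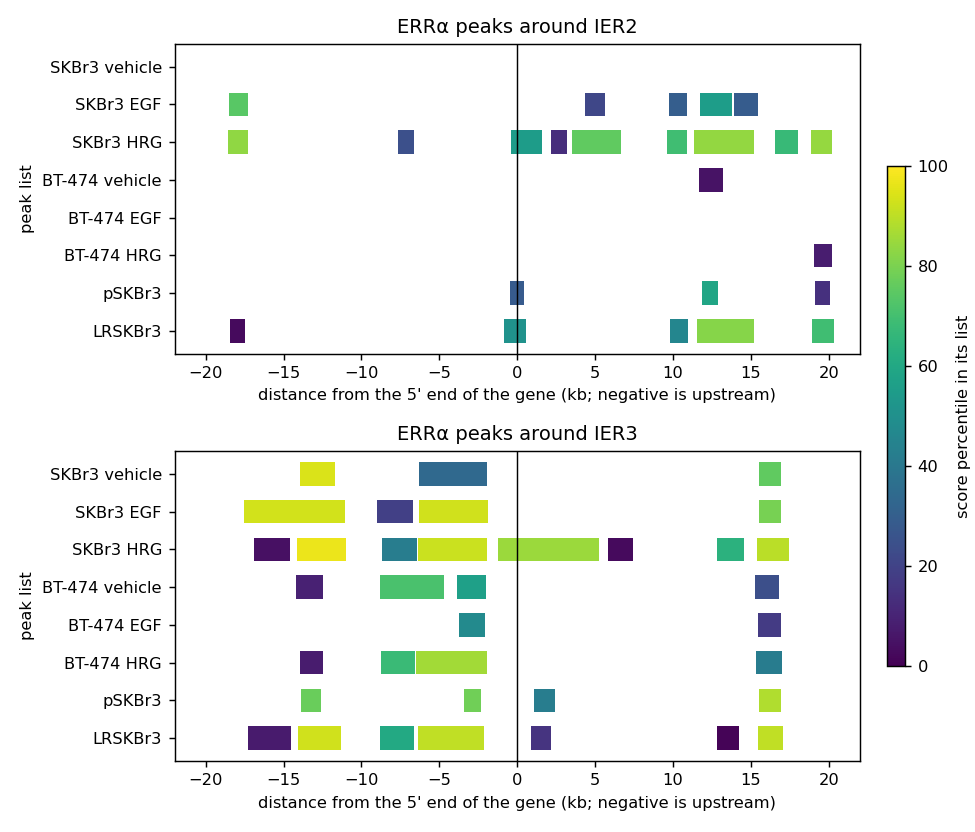
Peaks around IER2 (top) and IER3 (bottom) in each peak list, drawn to scale by distance from the 5′ end of the gene in kb (x axis, negative is upstream, black line at 0); colour is the score percentile of the peak in its own list. IER2 has no bar on SKBr3 vehicle and 9 on SKBr3 HRG, and IER3 has bars in every list, including the downstream one in FLOT1.

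The EGR genes encode zinc finger transcription factors that carry growth signals to their targets. EGR1 (ENSG00000120738, chromosome 5 from 137801168 to 137804992, plus strand) had no peak within 20 kb in any serum-starved list. The pSKBr3 list had a peak from 137799549 to 137800859, centred 964 bp upstream, at percentile 54.8. The LRSKBr3 list had one from 137799356 to 137800492, centred 1244 bp upstream, at percentile 6.1. Of the 12916 pSKBr3 peaks near genes with a LRSKBr3 peak, 0.248% dropped by as much in percentile. The 3 CArG boxes printed above lie 360 to 414 bp upstream, inside the pSKBr3 peak and beyond the end of the LRSKBr3 peak. Of all peaks 7.26% to 13.7% per list held a CArG box somewhere. The nearest peak in the starved SKBr3 lists was 62.9 to 63.2 kb from EGR1, and in BT-474 it was 62.9 kb away on EGF but 23.3 kb on vehicle and 23.6 kb on HRG, just outside the range.

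EGR2 (ENSG00000122877, chromosome 10 from 64571756 to 64578927, minus strand) had a peak downstream in 7 lists, 11300 to 11816 bp from the nearest EGR2 start. The start of ADO, a thiol dioxygenase gene, was 9 to 507 bp from these peaks and so nearer. The percentile of the EGR2 site was 84.3 on SKBr3 vehicle, 28.6 on EGF and 41.5 on HRG. In BT-474 cells it was 44 on vehicle and 56.1 on HRG with no peak on EGF, and it was 80.7 in pSKBr3 and 79.0 in LRSKBr3. Among shared SKBr3 peaks near genes, 1.1% dropped by as much on EGF and 4.06% on HRG. The site's percentile was thus 79.0 or more on SKBr3 vehicle, in pSKBr3 and in LRSKBr3 and lower in the other lists that called it. The AP-1 word shown above, at 64564091 to 64564097, lay inside the peak in each of the 7 lists. Another, weak peak upstream of EGR2 (percentile 2.9) was called on SKBr3 vehicle only.

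**Figure D4:**
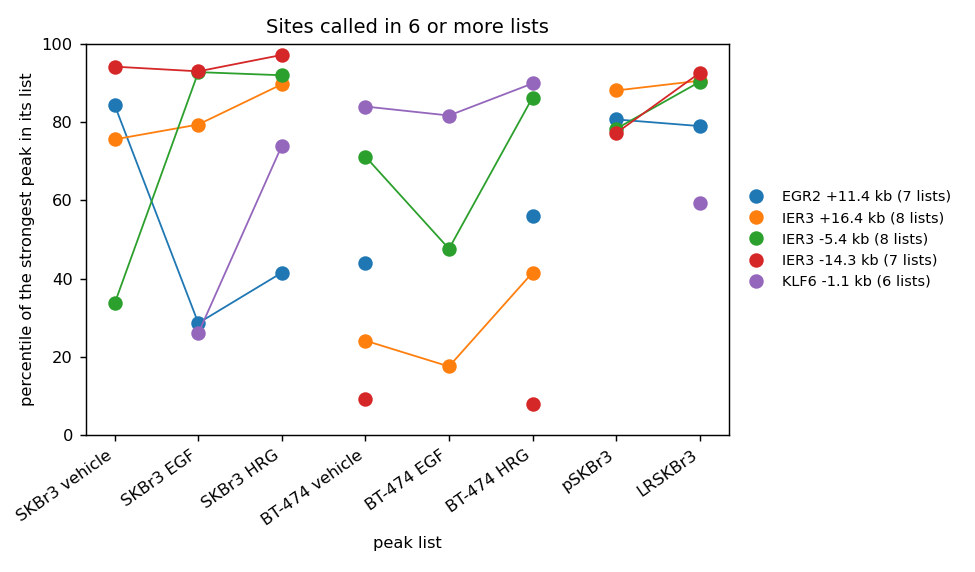
Score percentile within its list (y axis) of the strongest peak at each merged site called in 6 or more lists (colours, with the gene and the distance of the site centre from its nearest start), in each peak list (x axis). Lines join lists of the same cell line. Of the IER3 sites upstream, the nearer one goes from 33.7 on SKBr3 vehicle to 92.8 on EGF and the farther one from 94.2 to 93.0, while the EGR2 site goes from 84.3 to 28.6.

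KLF6 and KLF10 are Krüppel-like zinc finger factors; KLF10 is also known as a gene induced by TGFβ. KLF6 (ENSG00000067082, chromosome 10 from 3818188 to 3827473, minus strand) had a peak just upstream, 1004 to 1270 bp from its start, in 6 lists. It was at percentile 26 on SKBr3 EGF, 74.0 on SKBr3 HRG, 84.0, 81.7 and 89.9 in BT-474 cells on vehicle, EGF and HRG, and 59.3 in LRSKBr3. SKBr3 vehicle and pSKBr3 did not have it. Inside the gene, the SKBr3 vehicle list had peaks at percentiles 14.6 and 41.6, and that site was also called on SKBr3 EGF (9.9) and BT-474 vehicle (41.5). The downstream peak with the ERRE printed above was called on SKBr3 vehicle (percentile 31.1) and in LRSKBr3 (15.1). In pSKBr3 the nearest peak to KLF6 lay 35.6 kb away.

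KLF10 (ENSG00000155090, 103661012 to 103667953 on chromosome 8, minus strand) was bound in every BT-474 list. An intronic peak 1748 to 1854 bp from a start was at percentile 71.1 on vehicle, 75.1 on EGF and 74.5 on HRG. A peak 6026 to 6418 bp downstream was at 26.8, 52.8 and 22 in the same lists. Shared BT-474 peaks near genes shifted by a median of -3.8 percentile points on EGF and 2.6 on HRG. Against these, 20.1% of shared peaks gained as much as the intronic peak on EGF and 47.8% on HRG. For the downstream peak, 3.62% gained as much on EGF and 24.6% dropped as much on HRG. Outside BT-474 cells, KLF10 had a peak in range on SKBr3 HRG only, 13839 bp upstream at percentile 42.0. On SKBr3 vehicle and EGF, in pSKBr3 and in LRSKBr3 the nearest peak lay 21.4 to 21.8 kb away, just outside the range.

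EGR3 (ENSG00000179388, 22545172 to 22550993 on chromosome 8, minus strand) had 1 distal peak, 18992 to 19075 bp downstream and just inside the range, in 4 lists. It was at percentile 21.7 on SKBr3 vehicle, 52.0 on SKBr3 HRG, 6.5 on BT-474 vehicle and 51.2 in LRSKBr3. The start of BIN3 was nearer to it, at 4001 to 4084 bp.

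MYC (ENSG00000136997, 128747680 to 128755197 on chromosome 8, plus strand), the transcription factor that binds E-boxes and drives cell growth, had peaks in range in BT-474 cells and in no other list. On vehicle a broad peak of 6067 bp covered the start, at percentile 67.6. On EGF the peak lay 7116 bp upstream at percentile 30.2. On HRG there was a peak 1684 bp upstream (percentile 36.1) and another over the 3′ end of the gene (percentile 18.1). In the SKBr3, pSKBr3 and LRSKBr3 lists the nearest peak was 43.4 to 43.5 kb from a MYC start. Within 500 kb of MYC the BT-474 lists held 38 peaks on vehicle, 30 on EGF and 46 on HRG, more than at 99.4% to 99.8% of genes. The other lists held 6 to 11. Gene copy number was not measured here, and its part in this difference was not tested.

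SRF (ENSG00000112658, chromosome 6 from 43139007 to 43149244, plus strand), which encodes the factor that binds CArG boxes, had a peak in 2 lists. They were SKBr3 HRG (percentile 57.3) and LRSKBr3 (63.1). The peak lay 10848 to 10923 bp from the SRF start and 4 to 67 bp from that of CUL9, a cullin gene. No list had a peak at the SRF start itself.

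Set against its control list, the SKBr3 EGF list had 7 of 12 peaks near the 9 genes without a vehicle peak (58.3%, against 30% of all EGF peaks near genes). HRG had 17 of 22 (77.3% against 51.8%). Of the 9 vehicle peaks, 4 had no EGF peak (44.4% against 25.7%) and 4 no HRG peak (44.4% against 31.1%). The 7 EGF peaks comprised 5 at IER2 and 1 each at IER3 and KLF6. The 17 HRG peaks comprised 9 at IER2, 5 at IER3 and 1 each at KLF6, KLF10 and SRF. IER2 had no vehicle peak in range, and most of the EGF peaks without a vehicle peak were at this 1 gene. By gene, EGF brought IER2 into range (7.74% of all genes changed so) and left EGR3 without a peak (5.63%). HRG brought in IER2, KLF10 and SRF (16.5%) and left no gene without one (4.31%). The SKBr3 comparisons share the vehicle list. With lists of equal size, 2 of 5 EGF peaks had no vehicle peak (28.2% of all EGF peaks near genes) and 14 of 18 HRG peaks had none (45.4%). Of 6 vehicle peaks, 3 then had no EGF peak (26%) and 2 no HRG peak (32%). By gene, 3 were then bound on vehicle (46.3% of all genes), 2 on EGF (46.4%) and 7 on HRG (54%). EGF then brought in IER2 and left EGR2 and KLF6 without a peak, while EGR3 was not bound on vehicle. HRG then brought in EGR3, IER2, KLF10 and SRF and left no gene without one.

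In BT-474 cells 1 of 6 EGF peaks had no vehicle peak (16.7% against 16.5%) and 3 of 12 HRG peaks had none (25% against 31.7%). Of the 13 vehicle peaks, 8 had no EGF peak (61.5% against 39.1%) and 4 no HRG peak (30.8% against 20.3%). EGF left EGR2, EGR3 and IER2 without a peak (13.7% of all genes) and brought in none (3.06%). HRG left EGR3 without one (5.86%) and brought in none (8.21%). These comparisons share the BT-474 vehicle list and its input. With lists of equal size, 3 of 6 EGF peaks had no vehicle peak (19% of all EGF peaks near genes), and 0 of 5 HRG peaks had none (20.2%). Of 7 vehicle peaks, 4 then had no EGF peak (27.9%) and 2 no HRG peak (24.7%). By gene, 5 were then bound on vehicle (43% of all genes), 4 on EGF (38.7%) and 4 on HRG (39.6%). The vehicle peaks of EGR3 and IER2, at percentiles 6.5 and 5.0, were not among those kept. EGF then left only EGR2 without a peak and HRG left only MYC.

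Between the parental and resistant lines, 9 of 18 LRSKBr3 peaks had no pSKBr3 peak (50% against 48.5%), and all 9 pSKBr3 peaks had a LRSKBr3 peak (8.63% of pSKBr3 peaks near any gene had none). By gene, EGR3, KLF6 and SRF had a peak in LRSKBr3 only (14.7% of all genes), and no gene had one in pSKBr3 only (1.84%). In the full lists the share of peaks found in LRSKBr3 only was near that of all genes, and no difference from other genes is read from it. With lists of equal size, 5 of 12 LRSKBr3 peaks had no pSKBr3 peak (41.7% against 26.4%) and 2 of 9 pSKBr3 peaks had no LRSKBr3 peak (22.2% against 21.6%). By gene, 4 were then bound in pSKBr3 (57.2% of all genes) and 6 in LRSKBr3 (55.9%). EGR1 then had a peak in pSKBr3 only, and EGR3, KLF6 and SRF in LRSKBr3 only. The same genes were bound at P at most 1e-10 and at P at most 1e-08.

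**Figure D5:**
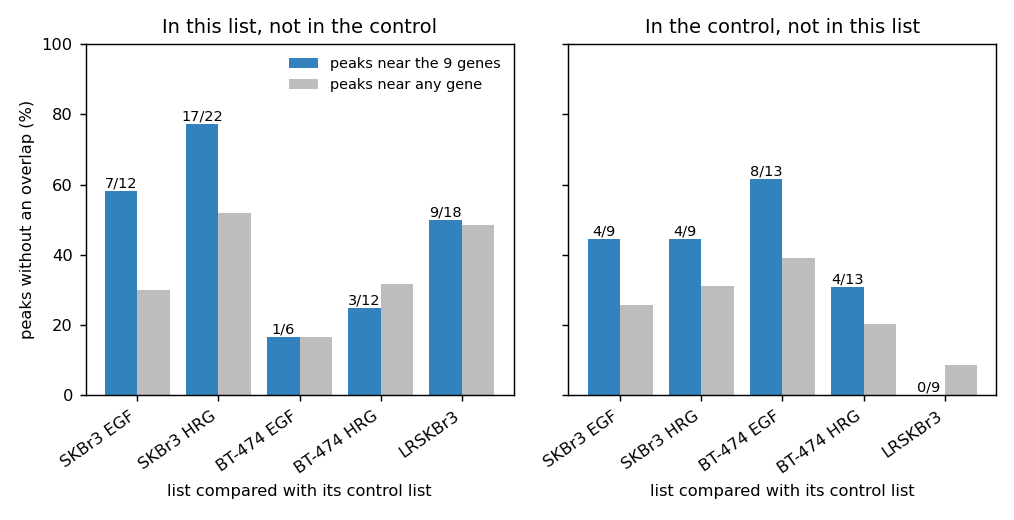
Share of peaks (y axis, percent) without an overlapping peak in the other list, for each list against its control list (x axis; vehicle for EGF and HRG, pSKBr3 for LRSKBr3), near the 9 genes (blue, with counts) and near any protein-coding gene (grey). On the left are peaks absent from the control list, 17 of 22 on SKBr3 HRG, and on the right are control peaks absent from the list, 8 of 13 on BT-474 EGF and 0 of 9 in LRSKBr3.

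Words were sought on both strands within 100 bp of each peak centre. The ERRE was in 5 of the 101 peaks (4.95%), against 5.57% to 8.1% of all peaks per list, and AP-1 was in 8 (7.92% against 5.7% to 12.7%). The CArG box was in 2 peaks (1.98% against 1.02% to 1.34%), the CRE, TGACGTCA, in 1 (0.99% against 0.0522% to 0.382%) and the E-box, CACGTG, in 0 (against 1.55% to 3.32%). Of the 8 peaks with AP-1, 5 lay at IER2, 2 at EGR2 and 1 at IER3. The 5 with the ERRE were 3 at IER3 and 2 at KLF6. By list, AP-1 was in 4 of 12 member peaks on SKBr3 EGF (33.3% against 12.7% of all peaks), 1 of 9 on SKBr3 vehicle (11.1% against 6.55%), 2 of 22 on SKBr3 HRG (9.09% against 9.76%) and 1 of 18 in LRSKBr3 (5.56% against 5.71%). It was in 0 of the member peaks of pSKBr3 (5.7% of all peaks) and of the BT-474 lists (5.94% to 7.41%). The ERRE was in 1 member peak each on SKBr3 vehicle (11.1% against 7.43%), BT-474 vehicle (7.69% against 6.4%) and BT-474 EGF (16.7% against 6.42%), in pSKBr3 (11.1% against 8.1%) and in LRSKBr3 (5.56% against 7.4%), and in 0 on SKBr3 EGF, SKBr3 HRG and BT-474 HRG. Over whole peaks AP-1 was in 44.6% of the member peaks (25.6% to 42.3% of all peaks per list) and the ERRE in 11.9% (12.9% to 16.0%). A wider peak holds more letters to match, and 19.8% of the member peaks were 3 kb or wider, against 3.93% to 16.8% of all peaks per list, so no excess of AP-1 is read from the whole peaks. Member peaks from different lists share the same sites, so these are not independent counts. A match is a run of letters, not a measured contact.

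Beyond the 9 genes, 30 other immediate early genes were counted by list. On vehicle, EGF and HRG, 20, 20 and 25 of them had a peak in SKBr3 cells and 20, 17 and 23 in BT-474 cells, with 21 in pSKBr3 and 25 in LRSKBr3. These were 56.7% to 83.3% per list, above the share of all genes in each. IER5L and SGK1, a serum-induced kinase gene, had a peak on SKBr3 EGF, on SKBr3 HRG and in LRSKBr3 but on neither control (1.72% of all genes). ARC and SNAI2 had none in any list (15.1% of all genes). Of 19 partners of the members, which include the ELK factors of SRF, the NAB corepressors of EGR and the MAX network of MYC, 8 to 16 had a peak. These were 42.1% to 84.2% per list, above the share of all genes in each list except BT-474 EGF, where 42.1% stood against 42.5%. MNT, a MAX partner that opposes MYC, was bound on SKBr3 EGF, on SKBr3 HRG and in LRSKBr3 but on neither control, and MXD4 and MXI1 in no list. None of the 30 genes or the 19 partners had a peak within 1 kb of a start in all 8 lists, as 6.59% of all genes did.

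Other genes shared the list pattern of each member. IER3 shared its presence in every list with 5334 genes, EGR2 its pattern with 888, MYC with 418, SRF with 358, KLF6 with 350, EGR1 with 141, IER2 with 76, KLF10 with 61 and EGR3 with 7. Among genes over 1 Mb away with the same pattern, those closest in the percentile of the strongest peak over the 8 lists were APOL6 for IER2 (mean difference 7.18 percentile points), ZDHHC18 for KLF6 (3.32), CTXN3 for EGR2 (9.41) and TPSD1 for SRF (0.202). The closest to MYC was SH3RF3 (2.13), to EGR1 PABIR1 (1.54), to EGR3 PRPSAP2 (2.19) and to KLF10 TAT (1.93).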

How the data were processed

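ERRα ChIP-seq was carried out in 13 ChIP libraries with 6 input libraries. Per the paper's methods and the labels, the authors aligned reads to hg19 (GRCh37) with BWA 0.5.9, used SAMtools 0.1.18, and ran MACS for the peak calls (P cutoff 1e-05). The deposited score of each peak, made by the authors with MACS, is −10 log10 P and starts at 50. Replicates were pooled by the authors into 1 list per condition.

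Here, starts were those of every transcript of the 19794 protein-coding genes of GENCODE lifted to GRCh37. A peak was in range with its centre within 20 kb of a start, and peaks were shared when they overlapped by at least 1 bp. All 9 genes are named, with others named where they were nearer to a peak or fitted the patterns given in the text. The members and lists were chosen with earlier results of these data known. The assignment, overlap and word search were tested on simulated data. The depth is unknown, so no interval is given. Alternatives concerned distance, threshold, list size, starts, overlap and words. RefSeq promoters (GRCh38.p14, 5 genes matched) were searched but are not reported. Python 3.11.15, numpy 2.4.6, pandas 2.3.3, pysam 0.24.0 and matplotlib 3.10.9 were used.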

Additional observations from a re-analysis of the deposited data

Results flagged for a closer look

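On EGF the number of peaks near IER2 went from 0 to 5 in SKBr3 cells and from 1 to 0 in BT-474 cells, opposite directions that differ by 6 peaks. Near IER3 it went from 3 to 4 and from 4 to 2, which differ by 3 peaks. With 1 list per condition these differences were not tested. The IER2 peak on BT-474 vehicle was at percentile 5.0. IER2 had no peak in that list within 10 kb, at P at most 1e-08 or with lists of equal size. The opposite directions at IER2 were not seen under these settings. On HRG no gene had changes of opposite direction in the 2 lines.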

How the results depend on the processing

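Of 176 recomputed values, 114 stayed within 1.5 times the reported one. No paired analysis was possible because the authors pooled the replicate libraries into 1 list per condition, and for the same reason no replicate was left out.

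With a range of 10 kb, as with 5 kb, 2 genes were bound on SKBr3 vehicle, 3 on SKBr3 HRG, 4 on BT-474 vehicle and 4 in LRSKBr3. The peaks within 10 kb numbered 3, 6 and 10 in SKBr3 cells on vehicle, EGF and HRG, 8 on BT-474 vehicle, 7 on BT-474 HRG, 4 in pSKBr3 and 7 in LRSKBr3. Shares in parentheses are of all genes, or of all peaks near genes, under the same rule. Without an overlap there were then 4 of 6 SKBr3 EGF peaks (28.5%), 9 of 10 on SKBr3 HRG (51.3%), 1 of 7 on BT-474 HRG (30.6%) and 3 of 7 in LRSKBr3 (46.3%). In the control lists there were 1 of 3 SKBr3 vehicle peaks against EGF (25%) and 2 of 3 against HRG (28.4%), and 4 and 2 of 8 BT-474 vehicle peaks against EGF and HRG (39.8% and 21.2%).

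With P at most 1e-10, SKBr3 EGF had 2 genes (45%) and 5 peaks, SKBr3 vehicle 4 peaks, BT-474 vehicle 7 and BT-474 HRG 6. The peaks without an overlap were then 2 of 5 on SKBr3 EGF (18.3%), 0 of 4 on BT-474 EGF (3.56%), 0 of 6 on BT-474 HRG (14.7%) and 5 of 12 in LRSKBr3 (32.7%). In the control lists they were 0 and 1 of 4 on SKBr3 vehicle against EGF and HRG (12% and 19.3%) and 4 and 1 of 7 on BT-474 vehicle (22.6% and 8.7%). With lists of 22539 peaks each, SKBr3 EGF had 2 genes (46.4%) and 5 peaks, BT-474 vehicle 7 peaks and BT-474 HRG 5. The peaks without an overlap were then 2 of 5 on SKBr3 EGF (28.2%), 3 of 6 on BT-474 EGF (19%), 0 of 5 on BT-474 HRG (20.2%) and 5 of 12 in LRSKBr3 (26.4%). In the control lists they were 2 of 6 on SKBr3 vehicle against HRG (32%), 4 and 2 of 7 on BT-474 vehicle (27.9% and 24.7%) and 2 of 9 in pSKBr3 (21.6%). The causes of these shifts were not tested.

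With centres within 500 bp counted as shared, 6 of 12 BT-474 HRG peaks (39.5%), 7 of 13 BT-474 vehicle peaks against HRG (29.1%) and 3 of 9 pSKBr3 peaks (21.4%) had none, and at an overlap of 50% so did 3 of 9 pSKBr3 peaks (24%). Counting only the gene of the nearest start, an alternative chosen after seeing the data, left 4 genes (52.9%) and 13 peaks on SKBr3 HRG, 4 genes (56.5%) and 10 peaks in LRSKBr3 and 5 peaks in pSKBr3. Limiting starts to protein-coding transcripts, also chosen afterwards, moved none of the counts beyond 1.5 times. Over whole peaks the ERRE was in 12 peaks (11.9%, all peaks 12.9% to 16.0%), AP-1 in 45 (44.6%, all 25.6% to 42.3%), the CArG box in 7 (6.93%, all 7.26% to 13.7%) and the E-box in 17 (16.8%, all 15.8% to 22.2%). The shorter word AAGGTCA was near the centre of 10 (9.9%, all 19.9% to 27.4%). The unknown depth limits any reading of a missing peak, which shows only that no peak passed the cutoff.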
